A study of Mus musculus with 6 samples.

Results

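Late neutrophil granule genes encode proteins that a neutrophil stores as it matures past the promyelocyte. The 10 genes described here were taken by symbol: Ltf, Ngp, Camp, Lcn2, Hp, S100a8, S100a9, Mmp8, Mmp9 and Retnlg. All 10 had a row in every library, out of 48395 symbols in the tables. Libraries were made from LSK cells, the lineage-negative, Sca-1-positive, c-Kit-positive marrow fraction that holds stem cells and early progenitors, sorted from C57BL/6 mice. Both groups carried Mx1Cre with the activating Jak2V617F/+ allele, where Cre follows an interferon-inducible promoter that is not limited to blood cells, so no group here had unmutated Jak2. Donor marrow primed with 5-fluorouracil was transduced by lentivirus with vector alone (3 libraries) or with Hmga2 (3 libraries), given to lethally irradiated recipients, and collected 32 weeks later. The share of sorted cells that carried the virus was not analysed here. The labels call the 3 libraries of each group biological replicates but name no animals, so p-values measure the spread between these libraries.

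Neutrophils fill their granules in order. Promyelocytes make the primary granules, with myeloperoxidase and serine proteases; myelocytes and metamyelocytes make the secondary, or specific, granules under the control of the transcription factor C/EBP-epsilon; gelatinase granules and abundant cytosolic S100 proteins come last. Stem and early progenitor cells are not known for making the late products, and a lineage-negative gate is meant to remove the cells that do.

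Total expected counts ranged from 24818011 to 35471806 per library, so that 1 read was worth 0.0282 to 0.0403 counts per 1000000 counts (CPM) and 3 reads 0.0846 to 0.121 CPM. Hmga2 itself stood at 5.97, 5.02 and 7.04 CPM with vector and at 2.64, 6.62 and 5.92 CPM in those labelled Hmga2, a log2 fold change of -0.25 ± 0.35 (SE; adjusted p = 0.934, edgeR). Whether the tables count reads from the lentiviral Hmga2 insert is unknown, so these values may describe the mouse gene alone. Since they did not bear out the label, the second group is called the libraries labelled Hmga2 throughout, and a direction is one between libraries. Kit, the sort antigen gene, was at 248 to 354 CPM in vector and 345 to 375 CPM in labelled Hmga2 libraries. Ly6a, which encodes Sca-1, was at 19.3 CPM in vector replicate 2 and at 32.2 to 59.1 CPM in the others.

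The promoters are shown first because 3 of these genes lie near each other on chromosome 9 and because C/EBP factors are known regulators of the family. RefSeq windows on GRCm38.p6, from 250 bases before to 50 after the start, were found for 8 of the 10 members, the others being Hp and Mmp9. Capitals mark matches to the C/EBP core TTGCNNAA on either strand. Ltf (chr9:111019042-111019341, plus strand), Ngp (chr9:110419558-110419857, plus strand) and Lcn2 (chr2:32387690-32387989, minus strand) hold a match, and Camp (chr9:109849407-109849706, minus strand) holds none. Each is written 5′ to 3′ along its gene.
Ltf: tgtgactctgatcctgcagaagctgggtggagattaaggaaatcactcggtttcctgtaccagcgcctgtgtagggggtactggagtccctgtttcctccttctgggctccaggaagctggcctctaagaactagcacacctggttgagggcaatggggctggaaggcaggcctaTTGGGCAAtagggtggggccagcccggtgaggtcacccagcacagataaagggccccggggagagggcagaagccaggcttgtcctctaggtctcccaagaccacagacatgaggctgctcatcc
Ngp: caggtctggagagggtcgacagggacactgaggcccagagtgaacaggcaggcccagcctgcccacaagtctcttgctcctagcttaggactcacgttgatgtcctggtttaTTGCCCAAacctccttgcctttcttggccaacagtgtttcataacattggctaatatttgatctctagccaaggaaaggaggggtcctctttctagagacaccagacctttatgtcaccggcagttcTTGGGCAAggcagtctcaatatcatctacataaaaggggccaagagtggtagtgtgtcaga
Lcn2: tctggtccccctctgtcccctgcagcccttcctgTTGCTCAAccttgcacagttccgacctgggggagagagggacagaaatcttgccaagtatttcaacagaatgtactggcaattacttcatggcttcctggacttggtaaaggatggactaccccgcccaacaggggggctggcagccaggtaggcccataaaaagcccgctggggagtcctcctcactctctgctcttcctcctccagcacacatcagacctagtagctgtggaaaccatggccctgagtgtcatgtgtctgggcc
Camp: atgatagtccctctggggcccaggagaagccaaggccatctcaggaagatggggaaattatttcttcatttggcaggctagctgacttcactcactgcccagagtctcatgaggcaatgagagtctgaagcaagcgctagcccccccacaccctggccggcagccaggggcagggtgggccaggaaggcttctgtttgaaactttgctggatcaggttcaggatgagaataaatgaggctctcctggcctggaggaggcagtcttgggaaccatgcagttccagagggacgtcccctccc

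Of the 8 windows, 6 held the C/EBP core, namely those of Ltf, Ngp, Lcn2, S100a9, Mmp8 and Retnlg. Over all 32851 windows of this length, 10.8% held it. Ngp held 2 matches, and its window contained the letters TTGCCCAA upstream and TTGGGCAA, the same core on the other strand, just before the start. The Ltf window carried TTGGGCAA at 75 bases before the start. The PU.1 core GAGGAA, searched on both strands, occurred in 4 of the 8 windows (Ltf, Lcn2, S100a8 and Mmp8) and in 28.3% of all windows. The 2 motifs share no overlapping match in these 8 windows. A match describes letters only.

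All 10 late neutrophil granule genes had lower mean CPM in the libraries labelled Hmga2, and for 7 of them the 2 groups did not overlap. Those 7 were Ltf, Ngp, Camp, Lcn2, Hp, S100a8 and S100a9. Lower, non-overlapping values were found for 5.87% of the 16739 tested genes. At an adjusted p under 0.05, 0 of the 10 were called by edgeR (quasi-likelihood test), and 0.0% of all tested genes. At an unadjusted p under 0.05, edgeR had the same 7 members lower, beside 3.36% of tested genes lower in this way. DESeq2 called 4 members lower, Hp, Ngp, Ltf and Lcn2, beside 0.37% of tested genes. The median log2 fold change of the 10 members was -1.56, while that of all tested genes was 0.00 and 49.6% of tested genes were negative. Without labelled Hmga2 replicate 2 the members' median was -2.40. In bulk RNA, fewer cells of a type and less RNA per cell cannot be told apart.

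**Figure D1:**
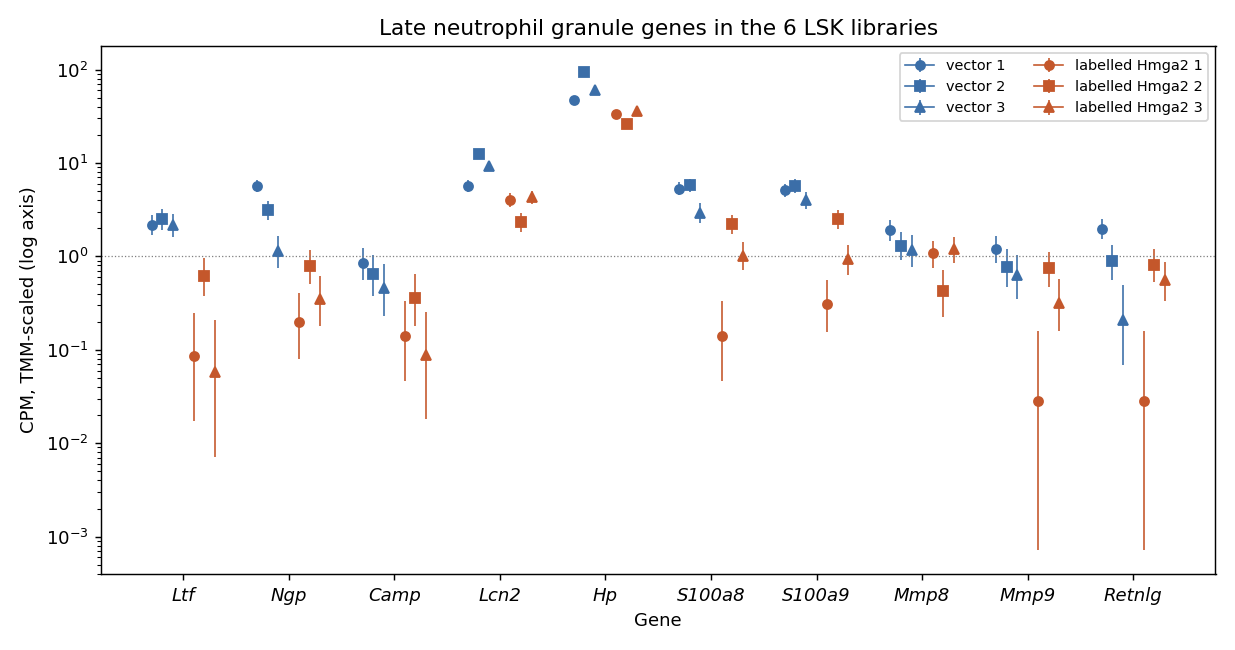
CPM of each member (log axis, TMM-scaled) in the 3 vector libraries (blue) and the 3 libraries labelled Hmga2 (orange), with exact 95% Poisson intervals for counting error; the dotted line is 1 CPM. Hp stands highest in every library, and 19 of the 30 orange points lie under 1 CPM against 7 of the 30 blue points.

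Read depth set what could be seen. Of 30 member values in the vector libraries, 7 were under 1 CPM, 1 rested on fewer than 10 reads and 0 on 3 reads or fewer. In the libraries labelled Hmga2, 19 of 30 were under 1 CPM, 8 rested on fewer than 10 reads and 5 on 3 reads or fewer. All 10 passed the count filter (at least 10 reads at the median library size, or 0.325 CPM, in 3 libraries). However, 7 of them passed only with the help of vector libraries, since fewer than 3 libraries labelled Hmga2 reached that level. Only Lcn2, Hp and Mmp8 reached it in all 6 libraries. Where passing leans on the higher group, the filter favours members that differ, so the counts over members describe them and test nothing.

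Specific granule proteins come first. Ltf encodes lactoferrin, which binds iron and defines the specific granule (chromosome 9, positions 111019271 to 111042767 on mm10). It was at 2.17, 2.50 and 2.18 CPM in vector replicates 1, 2 and 3, from 69, 65 and 52 reads. It was at 0.0848, 0.618 and 0.0583 CPM in labelled Hmga2 replicates 1, 2 and 3, from 3, 19 and 2 reads. The 3 reads allow 0.0175 to 0.248 CPM and the 2 reads 0.0071 to 0.211 CPM, by exact Poisson intervals. The vector libraries were close to each other, and labelled Hmga2 replicate 2 lay well above its 2 companions while staying under every vector library. The log2 fold change was -3.18 ± 0.77 (SE; 95% interval -4.99 to -1.37; adjusted p = 0.855 in edgeR and 0.0199 in DESeq2). Without labelled Hmga2 replicate 2 it was -4.93.

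Ngp, neutrophilic granule protein, belongs to the cathelicidin and cystatin superfamily and lies on the same chromosome (positions 110419747 to 110423012). Vector replicates 1, 2 and 3 held 5.70, 3.11 and 1.13 CPM, from 181, 81 and 27 reads. The libraries labelled Hmga2 had 0.198, 0.781 and 0.350 CPM, from 7, 24 and 12 reads. Here the vector libraries themselves spread widely, replicate 3 being nearest to the other group, though the groups did not overlap. For Ngp, counting intervals of vector replicate 3 (0.745 to 1.64 CPM) and labelled Hmga2 replicate 2 (0.500 to 1.16 CPM) did overlap. Its log2 fold change was -2.91 ± 0.71 (SE; 95% interval -4.59 to -1.24; adjusted p = 0.855 in edgeR and 0.0135 in DESeq2).

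Camp encodes the mouse cathelicidin, an antimicrobial peptide precursor, and is also on chromosome 9 (positions 109847379 to 109849617). Its 3 vector values were 0.851, 0.653 and 0.461 CPM, on 27, 17 and 11 reads. Its labelled Hmga2 values were 0.141, 0.358 and 0.0874 CPM, on 5, 11 and 3 reads. Vector replicate 3 and labelled Hmga2 replicate 2 had 11 reads each, with counting intervals of 0.230 to 0.824 and 0.179 to 0.640 CPM, so the gap between the groups was within counting error for that pair. Its log2 fold change was -1.75 ± 0.57 (SE; 95% interval -3.11 to -0.40; adjusted p = 0.855 in edgeR and 0.758 in DESeq2).

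Lcn2 encodes lipocalin 2, which withholds iron by binding bacterial siderophores (chromosome 2, positions 32384633 to 32388252). Vector libraries had 5.67, 12.4 and 9.29 CPM, from 180, 323 and 222 reads, and those labelled Hmga2 had 4.01, 2.31 and 4.28 CPM, from 142, 71 and 147 reads. Vector replicate 2 was highest and labelled Hmga2 replicate 2 lowest. Counting intervals of the nearest libraries, vector replicate 1 (4.87 to 6.56 CPM) and labelled Hmga2 replicate 3 (3.62 to 5.03 CPM), overlapped. Fitted over all libraries, the log2 fold change was -1.37 ± 0.36 (SE; 95% interval -2.21 to -0.53; adjusted p = 0.855 in edgeR and 0.0462 in DESeq2). Without vector replicate 2 it was -1.08.

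Mmp8, neutrophil collagenase, is also stored in specific granules (chromosome 9, positions 7558456 to 7568485). It was at 1.92, 1.31 and 1.17 CPM in vector and at 1.07, 0.423 and 1.19 CPM in labelled Hmga2 libraries, on 13 to 61 reads. Labelled Hmga2 replicate 3 lay above vector replicate 3, so the groups overlapped. For Mmp8 the log2 fold change was -0.71 with a 95% interval from -1.73 to 0.31 (adjusted p = 0.855, edgeR). It was -0.46 without vector replicate 1 and -0.39 without labelled Hmga2 replicate 2.

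Haptoglobin, the product of Hp, captures free haemoglobin and is made by maturing granulocytes as well as by liver (chromosome 8, positions 109575128 to 109579172). It was the most abundant member and the best measured, on 795 to 2475 reads. Its vector values were 47.2, 95.1 and 60.0 CPM and its labelled Hmga2 values 33.3, 25.9 and 35.8 CPM. Every vector library was above every library labelled Hmga2, and vector replicate 2 stood above the other vector libraries. The log2 fold change was -1.09 ± 0.26 (SE; 95% interval -1.71 to -0.47; adjusted p = 0.855 in edgeR and 0.0066 in DESeq2). It was -0.76 without vector replicate 2. That library also had the highest Elane (843 CPM) and the lowest Ly6a (19.3 CPM), whose part in the result was not tested.

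S100a8 and S100a9 encode the subunits of calprotectin, a calcium- and zinc-binding heterodimer that fills the neutrophil cytosol and is also made by monocytes. S100a8 lies on chromosome 3 at positions 90668978 to 90670035, and S100a9 close by at 90692632 to 90695721. With vector, S100a8 stood at 5.33, 5.80 and 2.93 CPM, from 169, 151 and 70 reads. In the libraries labelled Hmga2 it was at 0.141, 2.21 and 1.02 CPM, from 5, 68 and 35 reads. S100a9 stood at 5.07, 5.69 and 3.98 CPM with vector and at 0.311, 2.50 and 0.932 CPM in the other group, on 11 to 161 reads. The 2 subunit genes put the 6 libraries in the same order, vector replicate 2 first and labelled Hmga2 replicate 1 last. For S100a8, counting intervals of vector replicate 3 (2.28 to 3.70 CPM) and labelled Hmga2 replicate 2 (1.72 to 2.80 CPM) overlapped. The log2 fold changes were -2.07 for S100a8 (SE 0.79, 95% interval -3.92 to -0.21) and -1.98 for S100a9 (SE 0.65, 95% interval -3.52 to -0.44), each with adjusted p = 0.855 in edgeR. DESeq2 gave adjusted p = 0.294 and adjusted p = 0.162. Without labelled Hmga2 replicate 2, S100a9 had a log2 fold change of -2.98.

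Mmp9 and Retnlg rested on few reads in several libraries. Mmp9, gelatinase B, which names the gelatinase granule (chromosome 2, positions 164940780 to 164955850), was at 1.20, 0.769 and 0.628 CPM in vector and at 0.0283, 0.748 and 0.320 CPM in labelled Hmga2 libraries, on 1 to 38 reads. Labelled Hmga2 replicate 2 lay between the vector libraries. For Mmp9 the log2 fold change was -1.26 with a 95% interval from -3.19 to 0.67 (adjusted p = 0.855, edgeR), and it was -0.71 without labelled Hmga2 replicate 1 and -2.31 without labelled Hmga2 replicate 2.

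Retnlg encodes a resistin-like secreted protein of granulocytes (chromosome 16, positions 48872621 to 48874496). It was at 1.99, 0.884 and 0.209 CPM in vector and at 0.0283, 0.813 and 0.554 CPM in labelled Hmga2 libraries, on 1 to 63 reads. Vector replicate 3, at 5 reads, was lower than 2 of the libraries labelled Hmga2. Fitted over the 6 libraries, its log2 fold change was -1.17 with a 95% interval from -3.55 to 1.22 (adjusted p = 0.889, edgeR). It was -0.26 without vector replicate 1, -0.61 without labelled Hmga2 replicate 1 and -1.83 without labelled Hmga2 replicate 2.

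Exact two-sided permutation tests of log2(CPM + 0.1) gave p = 0.1 for each of the 7 members whose groups did not overlap, the smallest p that 3 libraries against 3 allow. Groups that do not overlap always give this p, so for these 7 the test only restates the separation. The same exact permutation test gave p = 0.2 for Mmp8 and Mmp9 and p = 0.4 for Retnlg.

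**Figure D2:**
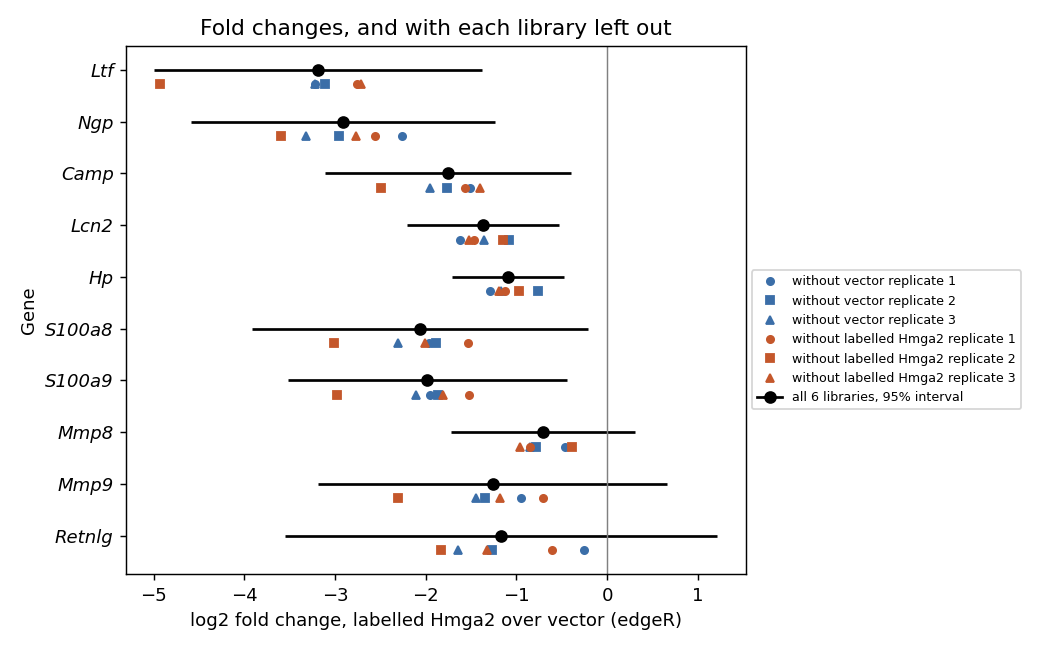
Log2 fold change of each member, labelled Hmga2 over vector, with its 95% interval (black), and below it the value with each library left out (coloured symbols). All values lie below 0, the intervals of Mmp8, Mmp9 and Retnlg cross 0, and leaving out labelled Hmga2 replicate 2 gives -4.93 for Ltf.

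Levels were compared between genes per kilobase of annotated exon. In the vector libraries Hp came first at 42.0 ± 15.5 CPM per kilobase (SD, n = 3). It was followed by S100a9 at 9.41 ± 1.66, S100a8 at 6.75 ± 2.22, Lcn2 at 3.48 ± 1.29, Ngp at 2.71 ± 1.88 and Retnlg at 1.73 ± 1.51 CPM per kilobase. Camp (0.864 ± 0.257), Ltf (0.662 ± 0.0540), Mmp8 (0.605 ± 0.165) and Mmp9 (0.244 ± 0.0838) followed on the same scale. Neighbours from Lcn2 down to Mmp8 differed by less than the larger of their SDs. In the libraries labelled Hmga2 Hp again led, at 19.7 ± 3.21 CPM per kilobase. S100a9 (2.39 ± 2.17), S100a8 (1.62 ± 1.50) and Lcn2 (1.35 ± 0.408) came next and lay within the SD of S100a9 from each other. Ltf was last, at 0.0735 ± 0.0915 CPM per kilobase, and differed from Mmp9, at 0.103 ± 0.102, by less than their SDs.

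**Figure D3:**
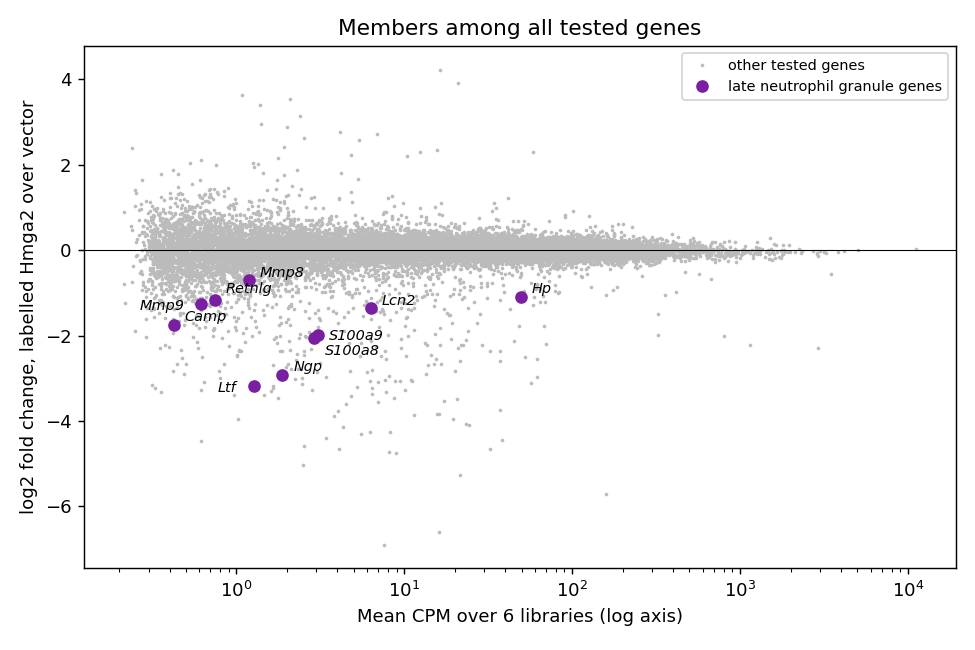
Log2 fold change of every tested gene (grey) and of the 10 members (purple) against mean CPM over the 6 libraries (log axis). The members lie between -3.18 (Ltf) and -0.71 (Mmp8), and other genes of like mean CPM reach fold changes as large or larger.

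The members did not share a single profile across libraries. Among the libraries labelled Hmga2, replicate 2 was the highest for 7 members (Ltf, Ngp, Camp, S100a8, S100a9, Mmp9 and Retnlg) and the lowest for the other 3 (Hp, Lcn2 and Mmp8). Replicate 1 was the lowest for 5 of the 10. Among the vector libraries, replicate 2 was the highest for 5 members (Ltf, Lcn2, Hp, S100a8 and S100a9) and replicate 1 for the other 5, and replicate 3 was the lowest for 7. Hp and Lcn2 gave one and the same order of the 6 libraries.

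Summed CPM followed the same division, which was made after the values were seen. The 7 members for which replicate 2 was the highest of the libraries labelled Hmga2 summed to 22.3, 19.4 and 11.5 CPM in vector replicates 1, 2 and 3, and to 0.933, 8.03 and 3.32 CPM in the libraries labelled Hmga2. Labelled Hmga2 replicate 1 thus held 33 reads of these 7 genes among 35471806. Hp, Lcn2 and Mmp8 summed to 54.8, 109 and 70.5 CPM and to 38.4, 28.6 and 41.3 CPM. All 10 together took 0.00784%, 0.0127% and 0.00789% of counts in the vector libraries and 0.00392%, 0.00370% and 0.00453% in the others. Hp alone made up 61.2% to 74.2% of the members' reads in vector and 70.6% to 84.7% in labelled Hmga2 libraries.

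**Figure D4:**
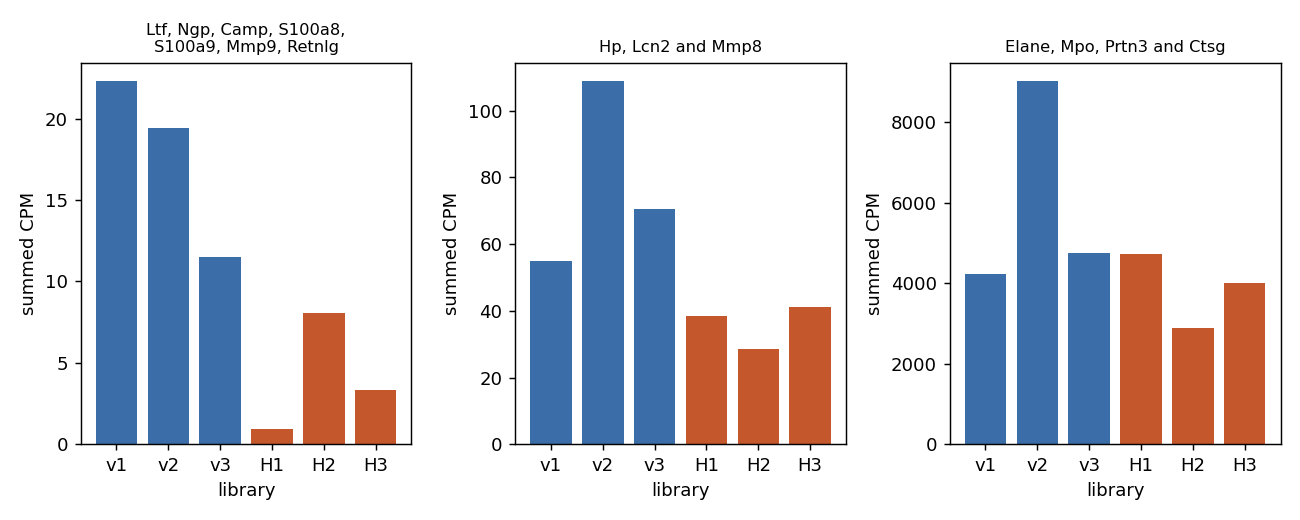
Summed CPM per library (v1 to v3, vector, blue; H1 to H3, labelled Hmga2, orange) of 7 members, of Hp, Lcn2 and Mmp8, and of 4 primary granule genes. The first panel runs from 0.933 to 22.3 CPM and has H2 as the highest orange bar, while in the other panels H2 is the lowest bar of all.

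Primary granule genes, the stage before, were read far more often. Elane, Mpo, Prtn3 and Ctsg, which encode neutrophil elastase, myeloperoxidase, proteinase 3 and cathepsin G, summed to 4229, 9028 and 4741 CPM in vector and to 4724, 2892 and 4010 CPM in labelled Hmga2 libraries. The 10 late genes came to 1.82%, 1.42% and 1.73% of that sum in vector, and to 0.832%, 1.27% and 1.11% in labelled Hmga2 libraries, so this ratio did not overlap between the groups. Hp alone gave 1.12%, 1.05% and 1.27% against 0.704%, 0.894% and 0.892%, also without overlap. With only Hp left out the ratio overlapped, at 0.707%, 0.367% and 0.464% against 0.127%, 0.372% and 0.219%. For the 7 members without Hp, Lcn2 and Mmp8 it overlapped too, at 0.528%, 0.215% and 0.243% against 0.0197%, 0.278% and 0.0828%. In the whole primary granule list 13 of 15 tested genes lay below 0 (median log2 fold change -0.44), beside 49.6% of all tested genes. In edgeR 0 passed and 5 were lower at an unadjusted p under 0.05, beside 3.36% of tested genes. DESeq2 called Ms4a3, a gene of granulocyte and monocyte progenitors, lower (adjusted p = 0.0075), beside 0.37% of tested genes. The log2 fold change of Elane was -1.50 ± 0.42 (SE). That of Mpo was -0.57 ± 0.34 (SE).

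Cebpe, which encodes the C/EBP-epsilon factor of specific granule genes, was at 6.90, 19.5 and 5.44 CPM in vector and at 4.89, 4.85 and 2.59 CPM in labelled Hmga2 libraries. Vector replicate 2 stood far above the rest, as it did for Elane. The groups did not overlap, though vector replicate 3 (5.44 CPM) and labelled Hmga2 replicate 1 (4.89 CPM) lay close. Counting error for that pair was not computed. Among the 22 regulators 1, Cebpe, was lower without overlap, beside 5.87% of all tested genes. The log2 fold change of Cebpe was -1.37 ± 0.52 (SE; adjusted p = 0.855, edgeR). For Cebpa, of the earlier progenitor stage, it was -0.16 (95% interval -0.86 to 0.54). Spi1, encoding PU.1, had -0.16 (95% interval -0.57 to 0.24). For Gfi1, a repressor needed for neutrophil development, it was -0.38 with a 95% interval from -1.01 to 0.25. Of 22 regulators, all tested, 13 lay below and 9 above 0 on the log2 scale (median log2 fold change -0.09). In edgeR and in DESeq2 0 passed. At unadjusted p under 0.05 edgeR had 1 lower and 2 higher, beside 3.36% of tested genes lower and 935 of 16739 in either direction. Runx1 (0.26) and Stat3 (0.18) were the regulators whose libraries labelled Hmga2 were all above vector. How many of all tested genes were higher in this way was not counted.

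**Figure D5:**
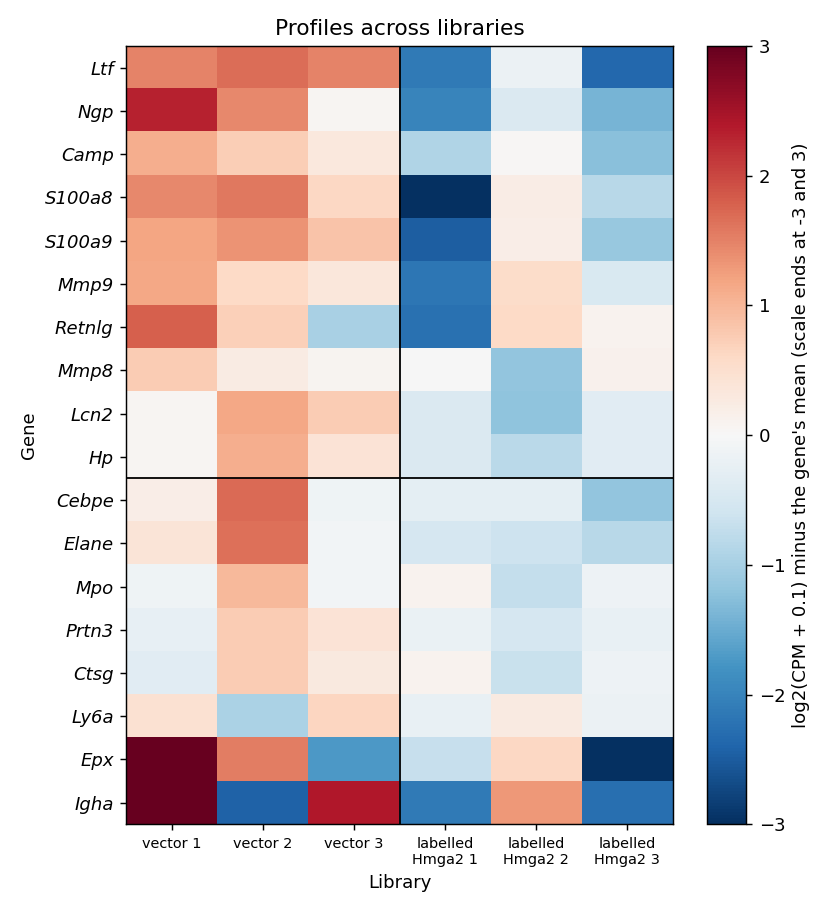
Log2(CPM + 0.1) of each gene minus its mean over the 6 libraries, colours ending at -3 and 3, for the 10 members (above the line) and for Cebpe, primary granule genes, Ly6a, Epx and Igha. Vector replicate 2 is highest for Hp, Lcn2, Cebpe and Elane, and labelled Hmga2 replicate 1 is lowest for S100a8, S100a9, Mmp9 and Retnlg.

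Other genes of mature neutrophils lay on both sides of 0, most of them below. Of 39 listed genes in the tables, 3 were at 0 in every library (Stfa1, BC100530 and Stfa3), 8 more did not pass the filter, and 28 were tested. Of these, 22 lay below and 6 above 0 on the log2 scale (median log2 fold change -0.21). In edgeR and in DESeq2 0 passed, and edgeR had 3 lower at an unadjusted p under 0.05, beside 3.36% of tested genes. Chil3, which encodes a chitinase-like secreted protein, was at 2.24, 0.692 and 1.30 CPM in vector and at 0.0565, 0.423 and 0.0583 CPM in labelled Hmga2 libraries. Wfdc21 stood at 0.473, 1.61 and 0.502 CPM with vector, against 0.0283, 0.260 and 0.0583 CPM. These 2 were the list's genes with no overlap between groups, beside 5.87% of tested genes lower in this way. For receptor genes of the list the groups overlapped. Csf3r, the receptor for granulocyte colony-stimulating factor, had 0.10 on the log2 scale (95% interval -0.46 to 0.67), and Cxcr2, a chemokine receptor, had 0.17 (-0.58 to 0.92). Csf3r, Cxcr2 and Lyz2 were among the 6 genes above 0. Cd24a, at -0.33 (95% interval -0.63 to -0.03), and Cd177, at -0.78 (-1.56 to 0.01), lay below, and their groups overlapped too. Lyz2, encoding lysozyme, was at 162 ± 38.1 and 183 ± 30.6 CPM (SD, n = 3). Ly6g, the antigen of mature neutrophils that lineage antibodies recognise, was read at most 11 times in any library, at 0 to 0.423 CPM, with vector replicate 2 highest.

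Genes for receptors and inhibitors of the member proteins had log2 fold changes on both sides of 0 where tested. Of 18 listed, 13 were tested, 7 negative and 6 positive, with a median of -0.02, and 0 were called in edgeR or DESeq2 or had an unadjusted p under 0.05 in edgeR. Tlr4 and Ager, both receptors for S100 proteins, had log2 fold changes of -0.05 (95% interval -0.57 to 0.47) and -0.24 (-0.86 to 0.38). Cd163, the scavenger receptor for haptoglobin bound to haemoglobin, had 0.22 (-0.13 to 0.57), and Slc22a17, a lipocalin 2 receptor, -0.02 (-0.57 to 0.53). Timp2 and Reck, inhibitors of matrix metalloproteinases, had 0.14 (-0.33 to 0.61) and 0.36 (-0.30 to 1.03). Among 4 genes read but not tested were Timp1 and Timp4, also metalloproteinase inhibitors. Timp1 was at 0.167 to 0.192 CPM with vector and at 0.0283 to 0.146 CPM in the others, on at most 6 reads. Its nearest libraries, at 0.167 and 0.146 CPM, were within counting error of each other. Timp4 was at 0.567, 0.384 and 0.251 CPM with vector and at 0, 0 and 0.0291 CPM in the others, on at most 18 reads. How often untested genes at such levels separate the groups was not counted.

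Markers of other mature cells varied between libraries, and some were highest in the same libraries as some members. Of 16 B and plasma cell genes in the tables, 0 were at 0 in every library and 13 were tested, with 10 below 0 on the log2 scale (median log2 fold change -1.23). DESeq2 called Xbp1, a transcription factor gene (log2 fold change -0.34, adjusted p = 0.0187), beside 0.37% of tested genes lower, and edgeR called 0. Xbp1 was at 162, 164 and 171 CPM with vector and at 139, 125 and 128 CPM in labelled Hmga2 libraries. Within each group its values did not follow those of Igha, given below. The summed level of the list was 813 to 13801 CPM in vector and 634 to 4587 CPM in labelled Hmga2 libraries. Igha, the heavy chain of immunoglobulin A made by plasma cells, was at 8930, 193 and 5469 CPM with vector and at 236, 2535 and 214 CPM. Labelled Hmga2 replicate 2, the highest of its group for 7 members, was also the highest of that group for Igha, and vector replicate 1, with the highest Igha, was the highest vector library for 5 members (Ngp, Camp, Mmp8, Mmp9 and Retnlg). Vector replicate 2, the highest for the other 5, had the lowest Igha of the vector libraries. The eosinophil, basophil and mast cell list, with 15 of 16 genes tested and 10 below 0, summed to 748 to 1017 and 556 to 933 CPM. Its granule gene Epx, eosinophil peroxidase, was at 56.0, 14.5 and 1.42 CPM with vector and at 2.996, 7.68 and 0.437 CPM. The monocyte and macrophage list, with 18 of 18 genes tested, summed to 342 to 663 and 326 to 592 CPM, with 12 negative and 6 positive. Its Ly6c2 was at 58.5, 145 and 45.3 CPM with vector and at 34.6, 30.4 and 36.7 CPM in labelled Hmga2 libraries. Cd14 was at 3.25, 12.4 and 3.98 CPM with vector and at 1.64, 2.08 and 2.94 CPM in the others. These were the 2 of the 18 genes lower without overlap, beside 5.87% of tested genes. The median log2 fold change of that list was -0.16. Erythroid genes, 14 of 14 tested, summed to 1887 to 2280 and 1278 to 2220 CPM, with 9 negative and 5 positive. DESeq2 called Rhd, Blvrb and Klf1 lower, beside 0.37% of tested genes, and edgeR called 0. Alas2 and the globin genes were the 5 positive, with log2 fold changes of 0.16 to 0.31, and their groups overlapped. T and NK cell genes summed to 137 to 243 and 168 to 190 CPM, mostly from Nkg7, which granulocyte progenitors also express. Of that list, Cd3e was read at most once in a library. Trbc1, however, was at 2.10 CPM in labelled Hmga2 replicate 3 and at 0.154 to 0.504 CPM in the other libraries. Stem cell genes, 15 of 15 tested, summed to 1676 to 1965 CPM in vector and 2132 to 2193 CPM in labelled Hmga2 libraries, with 12 positive. The part of any of these cells in the members' differences was not tested.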

How the data were processed

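RNA sequencing was run on 6 LSK libraries, 3 labelled vector and 3 labelled Hmga2, grouped by sample title. The values are expected counts (estimates) per gene symbol, made by the authors from aligned reads and deposited unscaled, 1 library to a table; this unit was judged from the values, of which 67.3% to 70.1% of those above 0 were whole within 1e-06. The submitters' processing notes name Partek 3.0, Bowtie2 and build mm10, with counter, annotation and strand setting not given in the sources used here. Such counts divide shared reads between similar genes, and reads from antisense partners cannot be told apart.

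Rounded counts of the 16739 genes that passed filterByExpr were fitted in edgeR 4.0.16 (R 4.3.3) with TMM scaling and a quasi-likelihood F test on group alone, adjusted by Benjamini-Hochberg at 0.05. The F statistic gave each standard error. CPM values are TMM-scaled, and Poisson intervals (95%) and the 3-read floor cover counting error only. DESeq2 1.42.0, other scalings, no filter, unrounded counts, a replicate block, immunoglobulin genes left out and each library left out were the alternatives. Chi-square over degrees of freedom between replicates was 24.8 to 57.0, so no pair was within sampling noise. The fit was tested on simulated counts. Exon lengths and gene positions come from GENCODE M21, on the build of mm10, and promoters from RefSeq, on GRCm38.p6.

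Members, gene lists and tests were chosen with earlier results of these data known. Named genes were the 10 members, up to 4 genes with the smallest p-values in each list, set regulators and granule, sort, targeted and plasma cell genes, and tested receptors and inhibitors. Timp1, Timp4, Cd3e, Alas2, the globin genes and the genes at 0 lie outside that rule. They were picked with their values in view, as were the motifs.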

Additional observations from a re-analysis of the deposited data

How the results depend on the processing

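Each member kept a negative log2 fold change under all 13 alternatives, among them 6 that left out a library. The number of genes called was 1 without the count filter and 71 with DESeq2, against 0 in edgeR, where 935 genes had an unadjusted p under 0.05. The number of members called was 4 with DESeq2 and 0 under the edgeR alternatives. Over the alternatives the lowest and highest adjusted p were 0.0199 and 0.999 for Ltf, 0.0135 and 0.999 for Ngp, 0.0462 and 0.999 for Lcn2, and 0.0066 and 0.999 for Hp, the lowest from DESeq2 and the others from edgeR. As libraries were left out, the median log2 fold change of the 10 members ranged from -2.40 to -1.46. The lower end came without labelled Hmga2 replicate 2 and the upper without labelled Hmga2 replicate 3, and the cause was not tested. The number of members whose groups did not overlap was 7 to 10 with a library left out, beside 9.01% to 15.7% of all tested genes. Leaving out a library can only keep or raise this number, so it is no check of the 7. It was 10 without vector replicate 3, beside 10.2%. With the replicate number as a replicate block, 0 genes were called and the members' median was -1.71. Same-numbered libraries did not deviate together (correlations -0.20, -0.49 and -0.21). Deviations within a group of 3 sum to 0, so these correlations cannot decide whether the numbers pair libraries. The labels name no pairing. At 1 to 5 reads in a library, Mmp9, Retnlg, Ltf, Camp and S100a8 were limited by depth.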
